A study of Mus musculus with 3 samples.

Results

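The 7 mouse genes described here build and control the MHC class II pathway: H2-Aa, H2-Ab1 and H2-Eb1, which encode chains of the class II molecules, H2-DMa and H2-DMb1, Cd74, and Ciita. They were chosen by symbol, and all 7 were found among 55536 annotated genes. Total RNA was sequenced from the chromatin fraction of C57BL/6J bone-marrow-derived macrophages after 90 minutes with lipid A at 100 ng/ml, and ribosomal RNA was depleted. Lipid A is the part of bacterial lipopolysaccharide that the receptor TLR4 senses. The series held 1 group of 3 biological replicates, made from 1 µg (replicate 1), 250 ng (replicate 2) and 500 ng (replicate 3) of RNA. The amount of RNA and the replicate number cannot be told apart. No unstimulated sample was analysed here, and every value is therefore a level after lipid A. The labels give 1 donor for the 3 libraries, and p-values therefore cover only variation among these samples, possibly of technical origin.

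A class II molecule is a pair of an alpha and a beta chain that shows peptides from endosomes to CD4 T cells. The invariant chain, encoded by Cd74, fills the groove of new pairs and guides them to endosomes, where cathepsins cut it down; the DM pair (H2-DMa and H2-DMb1) then swaps the remaining fragment for antigen peptides. Ciita is the coactivator that turns the family on. It binds no DNA itself but docks on factors (RFX, CREB and NF-Y) that sit on the X and Y boxes just upstream of class II genes. Dendritic cells and B cells make class II molecules constantly, whereas macrophages raise them mainly after interferon gamma. RNA on chromatin holds transcripts still being made and RNA kept in the nucleus, so it reports on synthesis more than on the mature message.

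Promoter stretches are shown for H2-Aa, H2-Eb1 and H2-DMa, because the letters of the X and Y boxes are the feature through which Ciita is known to act. The sequences come from RefSeq (build GRCm38.p6), which had a window for 4 of the 7 members; each stretch ends at the base before the gene's start in that table and is given 5′ to 3′ on the strand of the gene. H2-Aa lies at chr17:34287824-34288073 (minus strand), H2-Eb1 at chr17:34305617-34305866 (plus strand) and H2-DMa at chr17:34122635-34122831 (plus strand). Capitals mark matches to ATTGG (the Y box core), AACTGATGATGCT (the longest run shared by the H2-Eb1 and H2-DMb1 windows, which lies at the place of the X box) and TGACGTCA (a CRE, the kind of site that CREB binds), searched on both strands and chosen after these promoters had been read.
H2-Aa: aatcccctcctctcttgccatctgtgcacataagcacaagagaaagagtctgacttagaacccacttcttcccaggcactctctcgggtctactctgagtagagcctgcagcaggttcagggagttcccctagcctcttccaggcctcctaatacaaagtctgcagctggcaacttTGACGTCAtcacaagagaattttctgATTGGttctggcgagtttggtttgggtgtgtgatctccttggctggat
H2-Eb1: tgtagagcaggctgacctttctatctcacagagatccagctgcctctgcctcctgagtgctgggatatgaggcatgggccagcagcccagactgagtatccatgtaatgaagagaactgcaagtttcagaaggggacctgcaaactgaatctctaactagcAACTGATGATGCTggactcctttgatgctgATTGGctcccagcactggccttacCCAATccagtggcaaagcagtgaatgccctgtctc
H2-DMa: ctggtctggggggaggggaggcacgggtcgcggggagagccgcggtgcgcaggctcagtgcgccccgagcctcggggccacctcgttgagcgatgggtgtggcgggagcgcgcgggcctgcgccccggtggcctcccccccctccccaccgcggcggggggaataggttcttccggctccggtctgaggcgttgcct

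In H2-Eb1 the shared run began 89 bases before the start, and 17 bases lay between it and the nearest downstream ATTGG. In H2-DMb1 it began 92 bases before the start, with a gap of 18 bases to an ATTGG. H2-Aa had no match to the run; its TGACGTCA began 74 bases and its ATTGG 48 bases before the start. Among all 32851 windows of 250 bases in the table, ATTGG was present in 33.8% and TGACGTCA in 1.55%, and the run of 13 bases was present in 2, the windows it was taken from. The H2-DMa window of 250 bases that ends before base 34122832 held none of the 3 motifs. It had 27 CpG dinucleotides, against a median of 6 over all windows and 0 to 3 in the windows of H2-Aa, H2-DMb1 and H2-Eb1. The second H2-DMa window, at chr17:34125268-34125517, held 1 ATTGG and no CpG. A match is a description of the letters and shows no binding.

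The libraries were of unequal depth, with 11106553, 24906602 and 19753409 expected counts in annotated genes in replicates 1, 2 and 3, and protein-coding genes took 69.5%, 40.3% and 50.4% of them. Macrophage markers dominated the marker lists: 9 of 12 lay above the typical gene by the test described below (21.3% of all genes tested did), and their summed level was 770 to 1270 TPM. TPM is an abundance scaled by transcript length and by the library's total. Each library had been quantified in 2 ways, from reads without an alignment file (alignment-free) and from aligned reads (alignment-based, the source of values where no table is named). The alignment-free table gave the 12 B cell markers a sum of 7.97 to 31.4 TPM, against 1.10 to 1.32 TPM in the alignment-based table. The 12 T and NK cell markers summed to 16.7 to 44.7 TPM in the alignment-free table, against 1.78 to 3.76 TPM in the alignment-based table, and the 13 dendritic cell markers to 7.89 to 20.7 TPM, against 6.22 to 8.95 TPM. For the macrophage markers the alignment-free sum was 615 to 2130 TPM. Blk and Pou2af1 among the B cell markers, Ccl17, Cd207 and Cd209a among the dendritic cell markers, and Gzmb and Klrb1c among the T and NK cell markers were at 0 in all 3 libraries of both tables. Other markers were detected. Those with a mean of at least 10 expected counts were Batf3, Zbtb46, Ccl22 and Clec10a among the dendritic cell markers. Among the B cell markers they were Cd22, Fcer2a and Cr2, and among the T and NK cell markers Lck, Cd4 and Cd5. Batf3 averaged 4.23 TPM, the most of these. Cd3d had 21.5, 8.7 and 14.6 alignment-free TPM in replicates 1, 2 and 3, and 1, 0 and 0 alignment-based counts. Thy1 had 11.0, 4.69 and 6.72 alignment-free TPM in replicates 1, 2 and 3, and Cd8a 1.72, 0.529 and 0.658, and Cd3e, Ncr1 and Prf1 were above 0 in at least 1 library of that table, whereas all 5 had 0 counts in the alignment-based table. In bulk RNA, fewer cells of a type and less RNA per cell cannot be told apart, and the part of other cells in the class II values was not tested.

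The class II genes were present on chromatin at low to middling levels. Summed over the 7 members they held 520, 840 and 663 counts in replicates 1, 2 and 3, which was 0.00468%, 0.00337% and 0.00336% of the counts in annotated genes. Within the pathway, H2-DMa and Ciita stood highest by mean TPM, Cd74 followed, and the alpha and beta chain genes and H2-DMb1 were lowest. A gene's level is given below as log2(TPM + 1) minus the median of the tested protein-coding genes in the same library, whose median TPM was 5.5, 3.7 and 4.93 in replicates 1, 2 and 3. Genes with a mean of at least 10 expected counts were tested, and a gene was called above or below when its level lay more than 1 log2 unit from that median (limma's treat, Benjamini-Hochberg adjusted p under 0.05 over all genes). Of the 7 members, 6 had enough counts to be tested, and H2-DMb1, with a mean of 9 counts, did not.

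**Figure D1:**
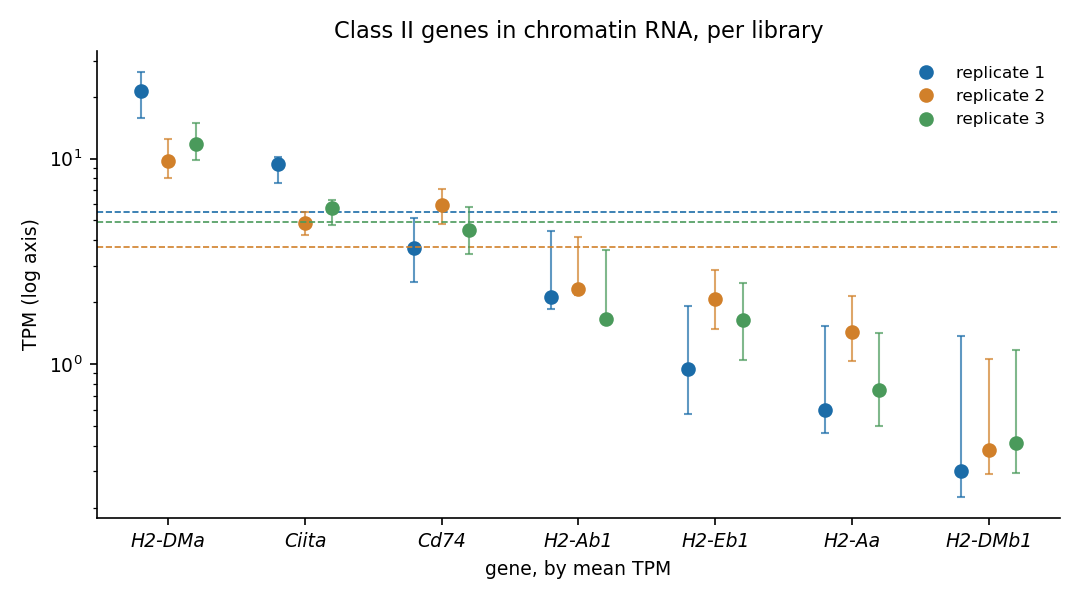
TPM of each member (x axis, ordered by mean TPM) in each library (colour), on a log y axis; thin bars are the deposited TPM interval, whose level is not given, and dashed lines are the median of tested protein-coding genes in each library. H2-DMa stood above the median in every library, at 9.75 to 21.25 TPM, and H2-Aa, H2-Eb1, H2-Ab1 and H2-DMb1 stood below it.

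None of the 6 tested members was called above and none below the typical gene, whereas 21.3% of the 13434 genes tested were called above and 21.3% below. At an unadjusted p under 0.05, 1 of the 6 passed (limma's treat), H2-Aa, on the low side, as did 23.8% of all genes tested on that side and 22.8% on the high side. The median level of the 6 was -0.46, against -0.21 over all genes tested. H2-Eb1, the member tested on the fewest counts, had 9, 40 and 21.

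Ciita, the master coactivator (chr16:10480059-10528418), had 9.41, 4.85 and 5.76 TPM in replicates 1, 2 and 3, from 330, 414 and 370 counts, the most counts of any member. It was highest in replicate 1 by TPM, and 62.2%, 56.1% and 53.6% of tested protein-coding genes lay below it. Its level was 0.39 ± 0.25 (SD, n = 3) log2 units above the median, with an adjusted p of 1.

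Cd74 (chr18:60803848-60812652) had 3.68, 5.93 and 4.49 TPM from 41, 136 and 70 counts. Replicate 2 was highest and replicate 1 lowest, and the gene crossed the median: its level was -0.47, 0.56 and -0.11 in replicates 1, 2 and 3. The mean level was -0.01 ± 0.52 (SD, n = 3).

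The alpha chain gene H2-Aa (chr17:34282744-34287823) had 0.60, 1.43 and 0.75 TPM from 15, 39 and 21 counts. Replicate 2 was the highest, and 9.34%, 29.7% and 14.1% of tested protein-coding genes lay below it. Its level was -1.58 ± 0.56 (SD, n = 3), with an adjusted p of 0.0562, just short of a call. H2-Aa was called below without replicate 1 (-1.36, adjusted p = 0.0482) and without replicate 2 (-1.89, adjusted p = 0.0151). Over 10 alternatives in all its adjusted p ran from 0.0148 to 1. The deposited TPM intervals of H2-Aa, whose level is not given, were 0.462 to 1.53 in replicate 1, 1.03 to 2.15 in replicate 2 and 0.496 to 1.42 in replicate 3, so the libraries overlapped.

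The beta chain gene H2-Ab1 (chr17:34257689-34269419) had 2.13, 2.31 and 1.65 TPM from 16, 45 and 25 counts, with replicate 3 lowest. Its level was -0.91 ± 0.35 (SD, n = 3), adjusted p = 1. H2-Eb1, the beta chain gene of the E molecule (chr17:34305867-34316674), had 0.94, 2.06 and 1.63 TPM. Replicate 1 was lowest, and the level was -1.18 ± 0.56 (SD, n = 3), adjusted p = 0.435. C57BL/6 mice are known to lack the E molecule because the partner alpha gene is defective, and that gene, annotated as H2-Ea-ps, had 0 counts in all 3 libraries of the alignment-based table.

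The DM pair was split across the range. H2-DMa (chr17:34119541-34139101) had 21.25, 9.75 and 11.71 TPM from 104, 154 and 146 counts and was the highest member by TPM in every library, with replicate 1 well above the others. Its deposited TPM interval in replicate 1, 15.7 to 26.4, did not overlap those of replicate 2 (8.06 to 12.5) and replicate 3 (9.82 to 14.9). The share of all genes with such a gap was not computed. The effective transcript length used to scale H2-DMa was 348, 576 and 589 bases in replicates 1, 2 and 3. The level of H2-DMa was 1.36 ± 0.37 (SD, n = 3), adjusted p = 0.121, and the adjusted p ran from 0.00038 to 1 over 11 alternatives. H2-DMb1 (chr17:34153072-34160230), which encodes the partner chain, had 0.30, 0.38 and 0.41 TPM from 5, 12 and 10 counts and was the lowest member in every library. Its level was -2.05 ± 0.28 (SD, n = 3), untested.

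The order of the members was compared between neighbours as the difference of log2(TPM + 1) within each library, which was described and not tested, since an exact sign-flip test of 3 libraries cannot go below p = 0.25. H2-DMa exceeded Ciita by 0.96 ± 0.12, and the sign was the same in 3 of 3 libraries. Ciita exceeded Cd74 by 0.40 ± 0.70, with the order turned in replicate 2, so these neighbours did not differ beyond their spread. Cd74 exceeded H2-Ab1 by 0.90 ± 0.28 in 3 of 3 libraries. H2-Ab1 exceeded H2-Eb1 by 0.27 ± 0.37, which is within the spread, although the sign was the same in 3 of 3. H2-Eb1 exceeded H2-Aa by 0.40 ± 0.17, and H2-Aa exceeded H2-DMb1 by 0.48 ± 0.29. The order of H2-Eb1 and H2-Aa turned with the alignment-free TPM described below (-0.48 ± 0.21). All errors here are SDs over 3 libraries.

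The genes whose levels lay nearest to those of H2-DMa over the 3 libraries were Smarca5 (20.92, 9.56 and 11.93 TPM), Tmem219 (22.25, 10.12 and 11.67 TPM) and Slc30a9 (22.37, 9.58 and 12.02 TPM). Their Euclidean distances were 0.042, 0.080 and 0.082 log2 units over 3 libraries of 1 condition.

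Most of the H2-DMa TPM was not assigned to its protein-coding isoforms. Isoforms typed as processed transcripts, which carry no annotated reading frame, held 90.9%, 74.2% and 80.7% of its TPM in replicates 1, 2 and 3, and the 3 coding isoforms held 9.13%, 15.9% and 19.3%. By counts the coding part was larger, at 34.5 of 104, 61.5 of 154 and 54.1 of 146, against 69.4, 81.9 and 92.3 in processed transcripts. These splits are the quantifier's estimates. The coding isoforms of H2-DMa summed to 1.94, 1.55 and 2.26 TPM. In every library this was below those of Ciita (7.35, 3 and 4.35 TPM) and above those of H2-Ab1 (0.32, 1 and 0.7 TPM). Those of Cd74, at 1.96, 4.12 and 2.27 TPM, nearly equalled those of H2-DMa in replicates 1 and 3 and exceeded them in replicate 2. Over 10491 to 10497 tested protein-coding genes the median share of TPM in coding isoforms was 52.2%, 60.9% and 61.6%, and 6.36%, 6.69% and 8.40% of genes had a lower share than H2-DMa. When levels were taken from coding isoforms only, an alternative chosen after seeing the data, H2-DMa moved to -0.19 ± 0.07 (SD, n = 3), below the median in place of above it.

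Much of the H2-DMa TPM in replicate 1 lay in a short isoform. H2-DMa-203, of 350 bases, had 13.59, 1.25 and 0.86 TPM in replicates 1, 2 and 3, from 27.6, 3.67 and 2.19 counts. H2-DMa-208 had 3.67, 5.21 and 7.36 TPM from 27.4, 68.7 and 77.9 counts and was the main isoform in replicates 2 and 3. This isoform starts inside Brd2, a bromodomain gene read from the opposite strand, and 313 of its 742 bases lie in annotated Brd2 exons. Brd2 had 306.43, 185.22 and 249.64 TPM, far above any member. The strand setting of the counting is not given in the sources used here, so reads of H2-DMa-208 and of Brd2 cannot be told apart with certainty, and the H2-DMa value is uncertain to that extent. The GC-rich stretch printed above for H2-DMa begins at the base after the annotated end of Brd2, where Brd2 itself starts.

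**Figure D2:**
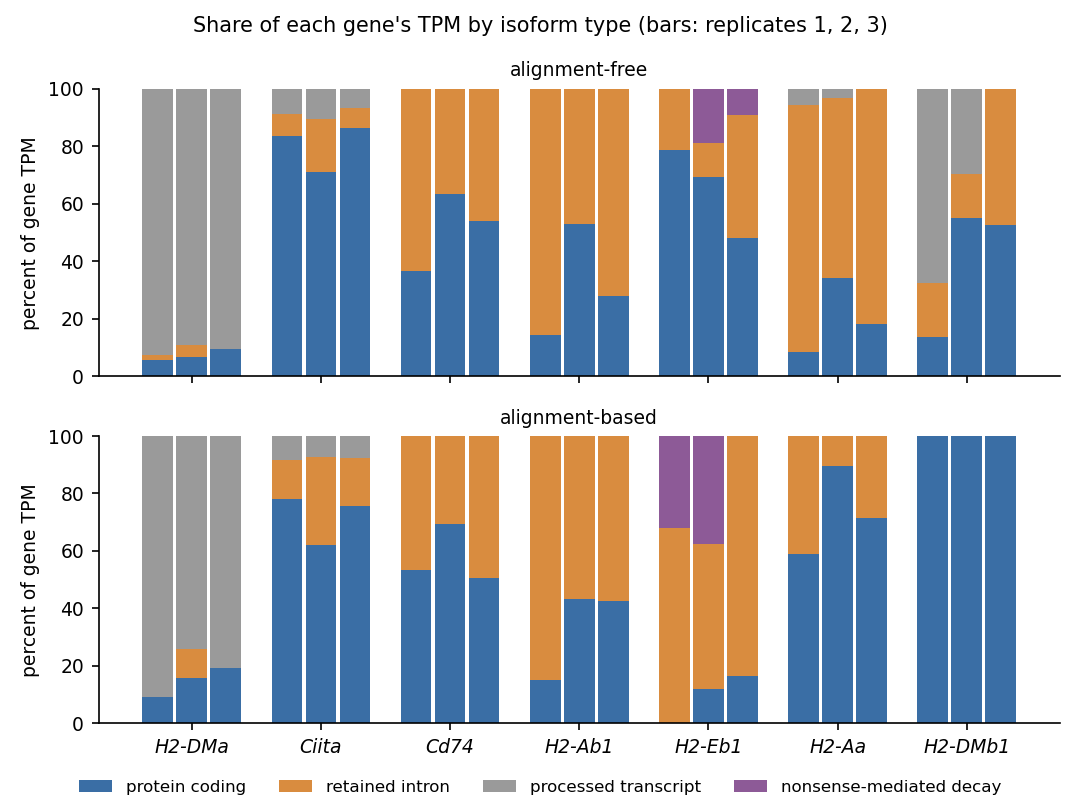
Share of each member's TPM (y axis, percent) by annotated isoform type (colour), with a bar for each of replicates 1, 2 and 3, from the alignment-free table (top) and the alignment-based table (bottom). H2-DMa was mostly processed transcript in both tables, whereas H2-Aa, H2-Eb1 and H2-DMb1 differed between them.

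Among the chain genes, isoforms that keep an intron held much of the alignment-based TPM of H2-Ab1 and H2-Eb1. H2-Ab1 had 85.0%, 56.9% and 57.6% of its TPM in retained-intron isoforms, and H2-Eb1 had 68.1%, 50.2% and 83.4%. Cd74 had 46.6%, 30.5% and 49.4% there. In H2-Aa the share was 41.0%, 10.6% and 28.4%, and H2-DMb1 was given to its coding isoform alone. For H2-Ab1, H2-Aa and Cd74 replicate 2 had the largest coding share, at 43.1%, 89.4% and 69.5%. These shares rest on few reads, such as 5.27, 14.9 and 15.7 counts in the retained-intron isoforms of H2-Eb1. By counts, those of H2-Ab1 held 11.4 of 16, 19.0 of 45 and 11.9 of 25 in replicates 1, 2 and 3. Those of Cd74 held 11.8 of 41, 21.9 of 136 and 21.7 of 70. By coding share of TPM, 51.0%, 57.6% and 38.9% of tested protein-coding genes lay below Cd74, and 55.5%, 71.1% and 59.3% below H2-Aa. Below H2-Ab1 lay 11.0%, 32.1% and 30.4%, and below H2-Eb1 0%, 4.62% and 6.82%. The coding isoforms of H2-Eb1 had 0, 0.25 and 0.27 TPM, and with coding isoforms alone H2-Eb1 was called below the median gene (-1.50 ± 0.31, SD, n = 3, adjusted p = 0.0425), where 7.01% of 10501 genes were called below and 21.4% above. The adjusted p of H2-Eb1 ran from 0.013 to 1 over 10 alternatives. In the alignment-free table the retained-intron share of H2-Eb1 was 21.1%, 12.0% and 42.9%, and its coding isoforms had 1.97, 0.744 and 0.722 TPM. There the retained-intron share was 85.9%, 62.7% and 81.8% for H2-Aa and 85.7%, 47.1% and 71.9% for H2-Ab1. The pattern of H2-Eb1 and H2-Aa thus depended on the quantification.

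Ciita is known to be transcribed from separate promoters that serve different cell types. Its 8 annotated isoforms start in 3 groups on chromosome 16: Ciita-205, Ciita-206 and Ciita-207 between bases 10480059 and 10480164, Ciita-201 and Ciita-202 between 10488178 and 10488279, and Ciita-203, Ciita-204 and Ciita-208 between 10489746 and 10489783. The first group held 17.4%, 44.4% and 21.1% of the Ciita counts in replicates 1, 2 and 3, the middle group 46.6%, 34.1% and 49.3%, and the last group 36.0%, 21.6% and 29.5%. All 3 groups thus received counts in every library, and replicate 2 differed from the others in giving most to the first. The alignment-free table gave the middle group the most in every library, at 50.9%, 43.0% and 47.2%. Most counts of the first group lay on the retained-intron isoform Ciita-207, with 53.9 of 57.6, 122 of 184 and 60.7 of 78.2. Ciita-207 runs from base 10480151 to 10512857, across the starts of the other groups. Many exons are shared by several isoforms, so these splits are the quantifiers' estimates. The use of each promoter was not tested. Part of the gene also lies opposite Dexi, with 329 shared exon bases out of 9535, and Dexi had 5.46, 4.26 and 4.56 TPM.

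The deposited files held a second measurement of each library, made without an alignment file, and its estimated counts for the members differed most at H2-Aa. The alignment-free table gave H2-Aa 210, 202 and 195 counts in replicates 1, 2 and 3, against 15, 39 and 21 in the alignment-based table, a ratio of 14.0, 5.18 and 9.27. Over 13427 tested genes the median ratio of alignment-free to alignment-based counts was 1.75, 1.76 and 1.72, and 96.3% of genes had a lower ratio than H2-Aa for counts summed over libraries. Nearly all of the H2-Aa estimate was placed on the retained-intron isoform H2-Aa-203, with 204, 177 and 186 alignment-free counts. The alignment-based table gave that isoform 10.4, 12.3 and 13.5 counts.

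H2-Eb1 had 53, 71 and 51 alignment-free counts, against 9, 40 and 21 alignment-based counts. The coding isoform H2-Eb1-203 held 47.9, 48.3 and 35.3 of these alignment-free counts, and 0, 3.58 and 0 alignment-based counts. The ratio of alignment-free to alignment-based counts, summed over libraries, was 2.22 for H2-DMa, 1.71 for Ciita, 1.85 for Cd74, 1.37 for H2-Ab1 and 1.73 for H2-DMb1, against a median of 1.73 over all genes tested.

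**Figure D3:**
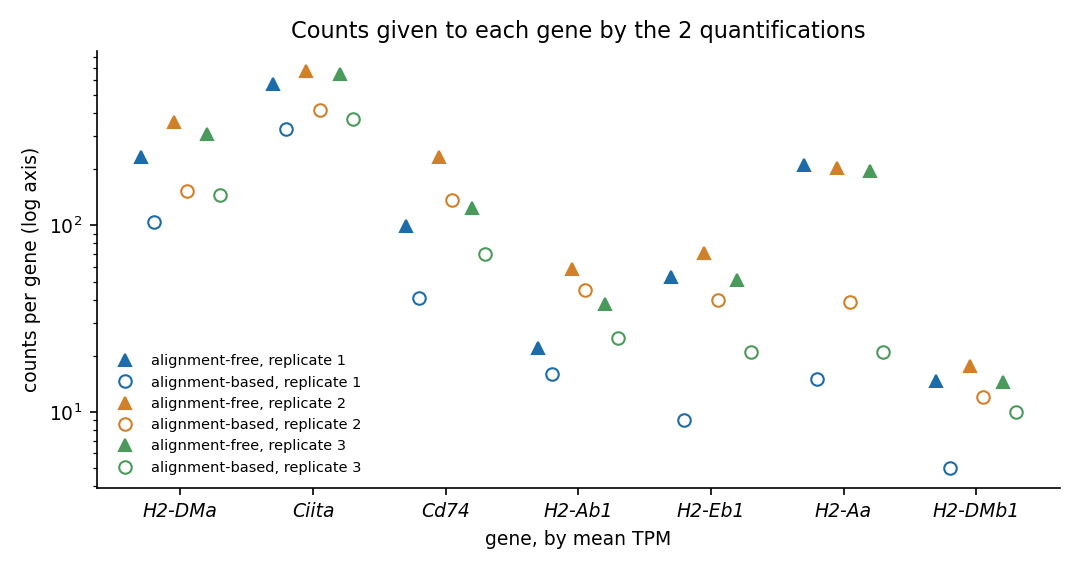
Counts per member (x axis) in the alignment-free table (triangles) and in the alignment-based table (open circles) for each library (colour), on a log y axis. H2-Aa had 195 to 210 alignment-free counts and 15 to 39 alignment-based counts.

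On the level scale the paired difference, alignment-free minus alignment-based, was called for 0 of the 6 members tested (limma's treat with a bound of 1 log2 unit; 0 also at an unadjusted p under 0.05), while 1.90% of 13427 genes were called higher and 0.633% lower. The difference of H2-Aa was 0.86, 0.00 and 0.33 in replicates 1, 2 and 3, a mean of 0.40 ± 0.43 (SD, n = 3), and that of H2-Ab1 was -0.83, -0.67 and -0.47, a mean of -0.66 ± 0.18. H2-Ab1 lay lower in the alignment-free table in all 3 libraries. With alignment-free TPM as the base of the level, H2-Ab1 (-1.57, adjusted p = 0.0286) and H2-Eb1 (-1.66, adjusted p = 0.013) were called below the median, where 22.7% of all genes were called below and 20.9% above, and H2-Aa was not. The adjusted p of H2-Ab1 ran from 0.0286 to 1 over 10 alternatives.

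The order of the members by their spread over the libraries depended on the scale. On the scale of log2 CPM (counts scaled to the library total, with TMM factors), Ciita and H2-DMa varied least. Ciita was at 4.38, 4.52 and 4.30 in replicates 1, 2 and 3, an SD of 0.11, and H2-DMa was at 2.73, 3.11 and 2.97, an SD of 0.19. Cd74 was at 1.42, 2.93 and 1.93 (SD 0.77), H2-Ab1 at 0.16, 1.38 and 0.52 (SD 0.63), H2-Eb1 at -0.56, 1.22 and 0.29 (SD 0.89) and H2-Aa at 0.08, 1.18 and 0.29 (SD 0.59). The median SD over all genes tested was 0.40. An SD smaller than that of Ciita was found for 7.63% of tested genes and one smaller than that of H2-Eb1 for 90.9%, with no test of either, and low counts widen the spread. The median SD of the 6 members was 0.61, and it was 0.22 without replicate 2. By TPM, the highest library was 1.94 times the lowest for Ciita and 2.18 times for H2-DMa, against 1.40 times for H2-Ab1, 1.61 for Cd74, 2.19 for H2-Eb1 and 2.38 for H2-Aa.

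On the log2 CPM scale Cd74, H2-Aa, H2-Ab1, H2-Eb1 and H2-DMa were lowest in replicate 1, that is 5 of the 6, against 42.9% of all genes tested. Replicate 2 was the highest for all 6 members, and the share of all genes that were highest there was not computed. Replicate 1 was the highest for 0 of the 6, against 44.5% of all genes tested. Of the macrophage markers, 9 of 12 were lowest in replicate 1, as were 5 of 8 endosomal processing genes and 2 of 12 of the inducers and repressors of Ciita. The part of starting amount and depth in this order was not tested. By TPM, 3 of the 6 members (Cd74, H2-Aa and H2-Eb1) were lowest in replicate 1, against 19.1% of all genes tested, while H2-Ab1 was lowest in replicate 3 and H2-DMa and Ciita were highest in replicate 1.

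The class II region of chromosome 17, taken from the start of H2-Oa to the end of H2-Eb2 (chr17:34092340-34341412, mm10), held 21 annotated genes, 5 of them members. Among the other genes 8 were tested and 4 were called above, and none below, and none of the 4 members tested there was called. Of all genes tested, 21.3% were called above and 21.3% below. The 4 region genes called above were Brd2, Tap1, Psmb8 and Tap2. Without replicate 3, 2 of the other genes were called above. Tap1 and Tap2 form the peptide pump of the class I pathway, and Psmb8 and Psmb9 are immunoproteasome subunits. Tap1 had 71.7, 31.4 and 44.8 TPM, a level of 3.07 ± 0.37 (SD, n = 3, adjusted p = 0.000185). Tap2 had a level of 1.61 ± 0.16 (adjusted p = 0.0121), Psmb8 1.72 ± 0.63 (adjusted p = 0.0358) and Psmb9 1.40 ± 0.73, which was not called (adjusted p = 0.201). Over these 249 kb the 5 members averaged 0.363 to 14.2 TPM, and the 4 class I processing genes averaged 16.3 to 49.3 TPM, a difference that was not tested.

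**Figure D4:**
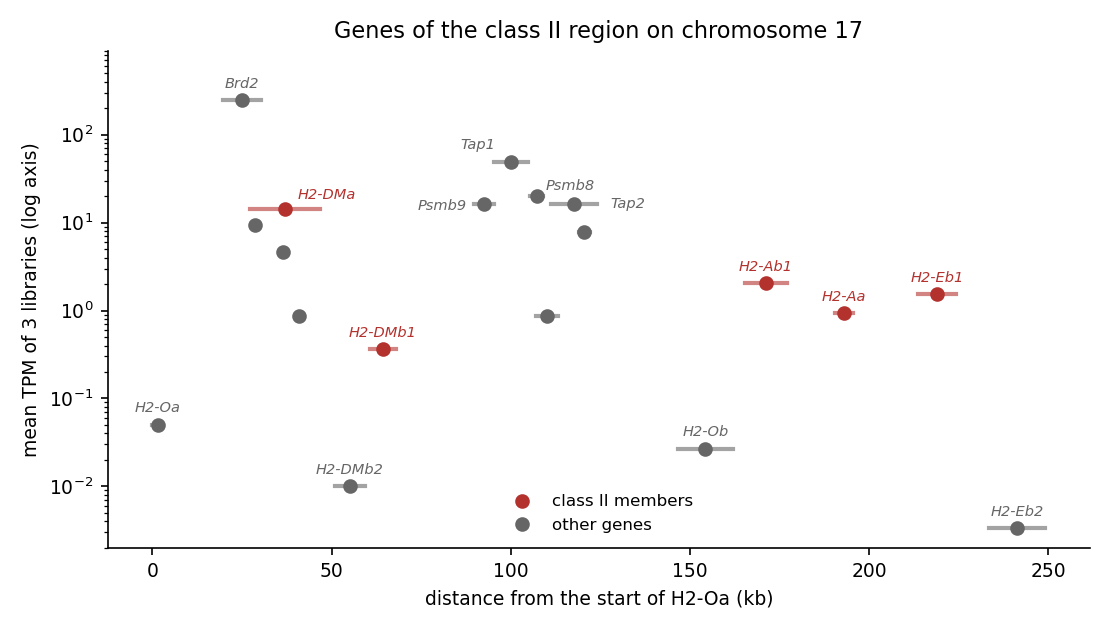
Mean TPM of 3 libraries (log y axis) for each gene of the class II region against its distance from the start of H2-Oa (kb); red marks members, grey the other genes, horizontal bars span each gene, and genes at 0 TPM are not drawn. Tap1, Tap2, Psmb8 and Psmb9 averaged 16.3 to 49.3 TPM, and H2-Ab1, H2-Aa and H2-Eb1 averaged 0.927 to 2.03 TPM.

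The other class II chain genes were at or near 0 in the alignment-based table. H2-Oa, which with H2-Ob restrains DM in B cells, had 1, 2 and 0 counts in replicates 1, 2 and 3, H2-Ob 0, 0 and 2, H2-DMb2 0, 1 and 0, and H2-Eb2 0, 0 and 1. At a count of 0 the true value could still be as high as 3 counts, or 0.27, 0.12 and 0.152 CPM in replicates 1, 2 and 3; such floors cover counting error only. The alignment-free table gave H2-Ob 19.6, 3.01 and 4.54 TPM. Nearly all of it lay on the retained-intron isoform H2-Ob-207, with 302, 158 and 137 alignment-free counts, against 0, 0 and 1 in the alignment-based table.

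The genes that switch Ciita on or off were mostly abundant. Of 13 in the list, 12 were tested and 8 were called above, against 21.3% of all genes tested. The median level of the 12 was 2.24, against -0.21 over all genes tested. Irf1, an interferon-induced activator that binds the Ciita gene, had 466.13, 223.55 and 288.67 TPM and a level of 5.79 ± 0.33 (SD, n = 3). Jak2, a kinase of the interferon gamma receptor, had a level of 4.64 ± 0.35. Irf8, Jak1, Irf2 and Spi1 were among the others called above. Replicate 1 was the highest library for Irf1 by TPM, as for Ciita and for the protein-coding median (5.5, 3.7 and 4.93 TPM in replicates 1, 2 and 3). By log2 CPM, Irf1 was highest in replicate 1 (8.91) and Ciita in replicate 2 (4.52).

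The receptor chains Ifngr1 (1.33 ± 0.11, adjusted p = 0.0848) and Ifngr2 (0.67 ± 0.36, adjusted p = 1) were not called, nor was Socs1, an inhibitor of JAK kinases (-0.24 ± 0.40, adjusted p = 1), nor Prdm1, a repressor of Ciita (1.44 ± 0.38, adjusted p = 0.0734). Ifng itself had 0 counts in all 3 libraries. Ifngr2 was called higher in the alignment-free table than in the alignment-based table (1.64, adjusted p = 0.0149).

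The 13 factors and coactivators that meet Ciita at class II promoters were all tested, with a median level of 0.53. Of these, 5 were called above, against 21.3% of all genes tested. They were Nfya, a subunit of NF-Y (58.00, 32.95 and 46.95 TPM, level 3.02 ± 0.16), the remodelling ATPase Smarca4 (2.62 ± 0.55), Creb1, and the acetyltransferases Ep300 and Crebbp. The other NF-Y subunits, Nfyb (0.53 ± 0.44) and Nfyc (-0.73 ± 0.18), were not called, and neither were the 3 RFX subunits. Rfx5 had 8.93, 9.32 and 8.69 TPM (level 0.82 ± 0.28, adjusted p = 1), Rfxap 4, 0.94 and 0.72 TPM (-1.15 ± 0.71, adjusted p = 0.541) and Rfxank 0.94, 1.51 and 1.21 TPM (-1.36 ± 0.42, adjusted p = 0.136). Rfx5 was the most even of the 3 over the libraries. By TPM Rfxap was highest in replicate 1, from 19, 31 and 20 counts in replicates 1, 2 and 3. By log2 CPM it was highest in replicate 2 (0.38, 0.87 and 0.23).

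Most genes of endosomal processing, which cut antigens and the invariant chain, were abundant. Of 8 genes of endosomal processing, 6 were called above and 1 below, against 21.3% of all genes tested on each side. The median level of the 8 was 2.71. Ctsb had 199.84, 151.59 and 138.52 TPM (level 4.84 ± 0.25), Ctsz a level of 3.52 ± 0.27, and Ctss, which makes the last cuts in the invariant chain, had 35.25, 22.20 and 25.31 TPM (2.31 ± 0.17, adjusted p = 0.000677). Ctsl, Ctsd and Lgmn were the others above. Ifi30, a lysosomal thiol reductase, was the gene called below, with 0.37, 1.22 and 0.51 TPM from 4, 24 and 8 counts (-1.77 ± 0.61, adjusted p = 0.0265), a call that was lost without replicate 3, with no minimum count, with the median of all tested genes as reference and with coding isoforms alone. Cst3, a cathepsin inhibitor, had 3.89, 3.22 and 3.18 TPM (-0.36 ± 0.18, adjusted p = 1).

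Among 4 genes that govern the turnover of class II molecules at the surface, Cd83 (71.29, 37.84 and 60.66 TPM, level 3.30 ± 0.22) and Il10 (29.57, 15.95 and 32.38 TPM, level 2.19 ± 0.32) were called above. Of all genes tested, 21.3% were called above. Cd83 protects class II molecules from the ubiquitin ligase March1, and interleukin 10 is known to raise that ligase in human monocytes. March1 had 4.77, 0.82 and 1.69 TPM (-0.89 ± 0.64, adjusted p = 1), highest in replicate 1, and March8, a related ligase, had 16.08, 8.25 and 11.72 TPM (1.16 ± 0.21, adjusted p = 0.359). The errors in these lists are SDs over 3 libraries.

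**Figure D5:**
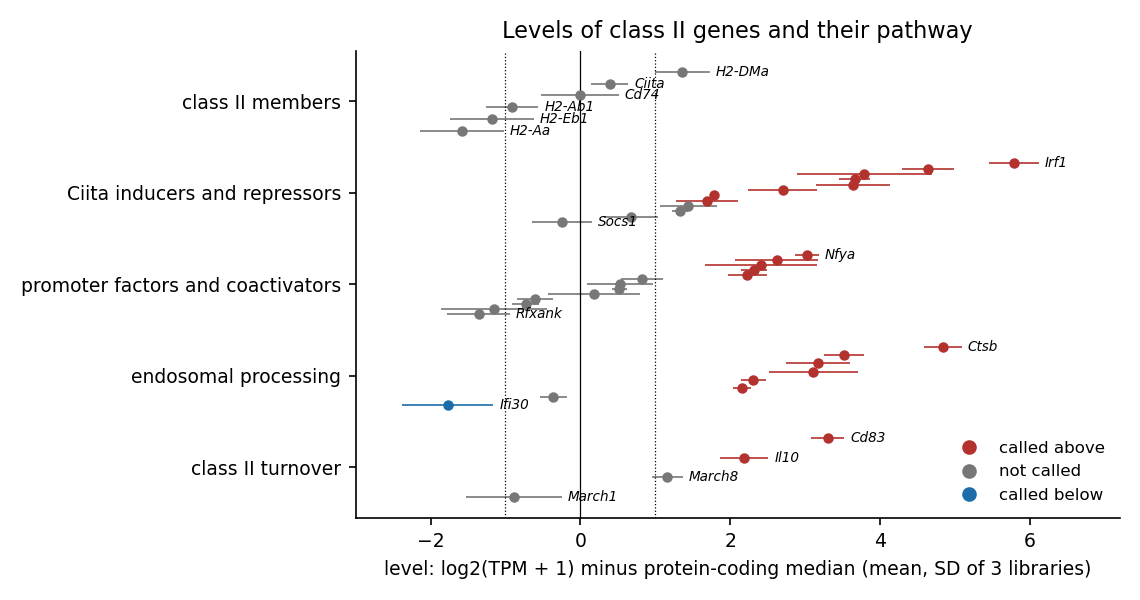
Level of each tested gene (x axis, log2(TPM + 1) minus the protein-coding median, mean and SD of 3 libraries) for the members and 4 pathway lists (rows); red was called above, blue below, grey not called, and dotted lines mark the bound of 1 log2 unit. The 6 members lay between -1.58 and 1.36, while the highest gene of the inducers, Irf1, lay at 5.79.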

How the data were processed

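Chromatin-fraction RNA of 1 group of 3 libraries was used. The authors deposited, for each library, expected counts and TPM per gene and transcript from an alignment to mm10 with the GENCODE M21 annotation, per the deposited description files, and a second transcript table of estimated counts and TPM made from reads without an alignment file. The deposited score columns, bounds of a TPM interval per the file headers, and posterior mean TPM were used as deposited. The sources used here do not give the aligner, the strand setting or the treatment of reads that map to several places. TPM is scaled over all entries, so an abundant RNA moves the TPM of the others, and a pseudocount of 1 understates differences between low genes. Entries without a gene held at most 1.51% of counts and were left out.

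Genes with a mean of at least 10 expected counts were tested (13434 genes, 10530 protein-coding). Levels and quantifier differences were fitted over all genes with limma 3.58.1 (treat, bound of 1 log2 unit, intercept only) in R 4.3.3, with Benjamini-Hochberg adjustment at 0.05. The level fit was also run on simulated data with 200 changed genes, where all other genes shared the same level in a library. That setting differs from these data, so it does not check the calls of single members. Expected counts were rounded for edgeR 4.0.16 (TMM, prior count 2); DESeq2 1.42.0 gave alternative size factors. Named genes were the members, the 2 highest and 2 lowest tested genes of each pathway list by mean TPM, small lists whole, the 3 genes nearest to H2-DMa and the highest genes of the region; other genes were named after their values were seen. The members and lists were chosen with earlier results of these data known. The values of 1 list gene are not reported here. Sequences are from RefSeq.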

Additional observations from a re-analysis of the deposited data

How the results depend on the processing

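No paired analysis was possible because the series holds 1 group. Against 0 members called above and 0 below, no minimum count and the median of all tested genes as reference each called 1 above (H2-DMa). A pseudocount of 0.1, posterior mean TPM and edgeR RPKM each called 1 below (H2-Aa), coding isoforms alone 1 (H2-Eb1) and alignment-free TPM 2 (H2-Ab1 and H2-Eb1). Leaving out each replicate in turn gave 0 to 1 below. Every level shifts by 0.95 with no minimum count, by -1.07 with a minimum of 100 and by 0.21 on average with the all-gene median, because other genes enter the reference.

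Single levels turned sign for Cd74 near 0 (0.94 with no minimum, 0.20 with the all-gene median, 0.007 with edgeR RPKM, 0.15 with coding isoforms, and from -0.29 to 0.22 when replicates were left out, at 0.043 without replicate 3), for H2-Ab1 (0.041 with no minimum), for Ciita (-0.68 with a minimum of 100) and for H2-DMa (-0.19 with coding isoforms). None of these 9 was called.

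With no minimum count, 4 other chains were called below, 8 promoter factors above, and 7 region genes above and 4 below. With a minimum of 100, whose reference is higher, promoter factors gave 1 above and 1 below, endosomal genes 0 below, turnover genes 1 above and 1 below, and region genes 2 above. Promoter factors had 1 below with a pseudocount of 0.1, alignment-free TPM or edgeR RPKM, and 0 to 1 when replicates were left out. The endosomal call below became 0 with no minimum count, with the all-gene median and with coding isoforms, and 0 to 1 when replicates were left out; turnover genes above became 1 with coding isoforms. Region genes above ranged from 2 to 4 when replicates were left out, lowest without replicate 3.

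Against 255 genes higher and 85 lower in the alignment-free table, a pseudocount of 0.1 gave 418 higher, and a minimum of 100 gave 84 higher and 52 lower. The members' median SD of 0.61 ranged from 0.22 (without replicate 2) to 0.82. With alignment-free TPM, Cd74 exceeded H2-Ab1 by 1.28, H2-Eb1 minus H2-Aa turned to -0.48, and H2-Aa exceeded H2-DMb1 by 1.04; with a pseudocount of 0.1 the last pairs differed by 0.70 and 1.07. The coding share of TPM in the alignment-free table was 20.3% for H2-Aa, 7.27% for H2-DMa, 40.6% for H2-DMb1 and 65.4% for H2-Eb1. The cause of these shifts was not tested. Depth limits H2-DMb1, H2-Eb1 and H2-Aa most, with 5 to 40 counts a library.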
